A study of Mus musculus with 8 samples.

Results

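The genes described here are 35 enzymes of amino acid catabolism and the urea cycle, taken as a list of names and grouped by pathway: the urea cycle, histidine, tyrosine, tryptophan, methionine with transsulfuration and serine, glutamine with the aminotransferases, proline with lysine, the branched-chain amino acids, glycine with glyoxylate, and pyrimidine. Of the 35, 34 had a probe on the array, among 16558 genes with a named and detected probe, and all 34 were detected on all 8 arrays with no saturated spot. Haao was not analysed here. The enzymes were measured in liver RNA of wild-type male C57BL/6 mice, 14 to 17 weeks of age at the start, that ate either standard chow (STD, 4 mice) or an atherogenic diet (ATH, 4 mice) for 4 weeks. The ATH diet differed from chow in more than 1 way, since it held added fat, cholesterol and cholic acid, and neither group carried a transgene or a drug. Each liver was hybridized to 1 array of a 1-colour Agilent whole mouse genome design, in which the brightness of a spot stands for the amount of RNA that binds it.

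The liver takes up most of the amino acids that arrive from the gut and removes their nitrogen. Aminotransferases and deaminases pass the nitrogen to glutamate, aspartate and ammonia, and the urea cycle, which begins in mitochondria and ends in the cytosol, turns ammonia and aspartate into urea. The carbon skeletons are burned or turned into glucose, while methionine is also the source of S-adenosylmethionine, the methyl donor of the cell, and through transsulfuration of cysteine. Most of these enzymes are made mainly by hepatocytes, many of them near the portal vein, and several respond to glucagon, glucocorticoids and the protein content of the diet.

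All values are log2 processed signals minus the 75th percentile of the array, called scaled log2 signals below, so that a difference of 1 is a 2-fold change. A gene was called when the adjusted p of limma, a linear model fitted to all 31056 detected probes, was under 5% after Benjamini-Hochberg adjustment. Of the 34 genes, 17 were called lower on the ATH diet and 0 were called higher, against a background of 5.30% of all 16558 genes called lower and 4.05% called higher. Another 12 genes were lower at an unadjusted p under 0.05 without passing the adjustment (29 in all, where 19.5% of all genes were), and 5 did not reach that level. At the 1% rate that the study's Methods use, only Cth was called, lower, where 0.380% of all genes were called lower and 0.260% higher. All 34 log2 fold changes were negative, as were those of 65.1% of all genes, and their median was -0.61 against -0.14 over all genes. For 25 of the 34 the ATH arrays all lay below the STD arrays, which held for 14.6% of all genes, and for 0 they all lay above, which held for 7.60%. With 1 array left out in turn the 17 became 3 without ATH replicate 4 or STD replicate 1, and 4 without STD replicate 3 or 4. They became 5 without ATH replicate 3, 7 without STD replicate 2, 14 without ATH replicate 1 and 20 without ATH replicate 2. Tat, Gnmt and Cth were called each time. Calls over all 31056 probes, 2483 with every array, changed too. They were 1669, 3979, 643 and 489 without ATH replicates 1 to 4, and 419, 1019, 394 and 502 without STD replicates 1 to 4.

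**Figure D1:**
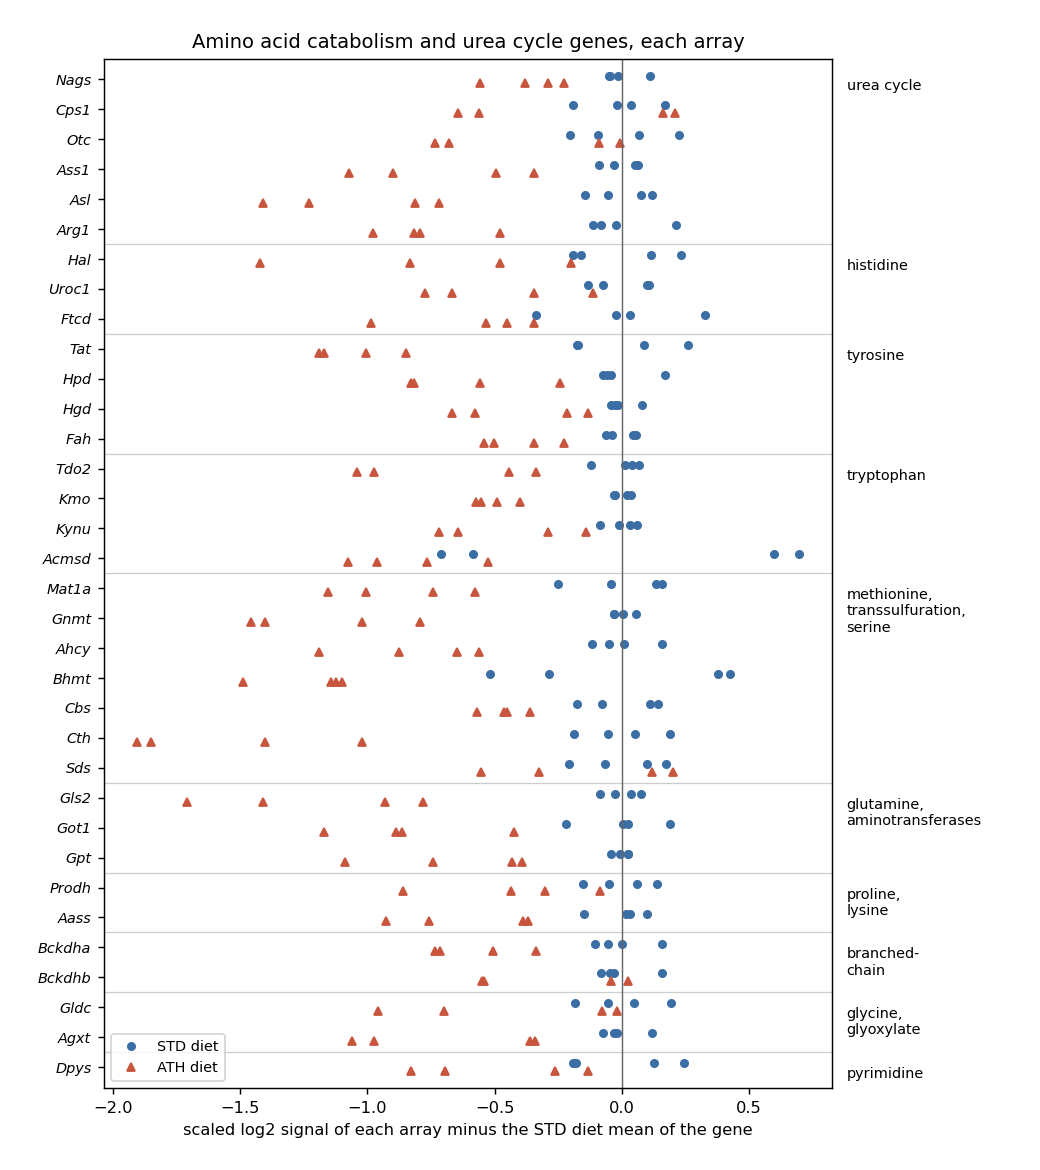
Scaled log2 signal of each of the 8 arrays for the 34 genes, as the difference from the mean of the 4 STD arrays of that gene, with genes in rows by pathway. Circles are STD arrays and triangles are ATH arrays, and for 25 of the 34 genes every triangle lies to the left of every circle.

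Most of these genes have probes of high signal, and genes of high signal were called lower more often than others. Of the 921 genes at or above the lower quartile of the 34 genes' mean signal, 14.9% were called lower and 1.30% higher. The ATH arrays also spread more: the median SD of the 34 genes was 0.12 on the STD diet and 0.30 on the ATH diet (n = 4 each), against 0.19 and 0.27 over all genes. The lowest of the 8 arrays was ATH replicate 3 for 19 genes, ATH replicate 4 for 10, ATH replicate 1 for 3 and ATH replicate 2 for 2, and no STD array was lowest for any gene. All STD arrays lay on one slide and all ATH arrays on another, so an effect of the slide and one of the diet cannot be told apart.

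The probes of the 4 called genes with the largest log2 fold changes are shown so that a reader can see what was measured. Each is the first 30 bases of a 60-base probe, written 5′ to 3′ in lower case, with the position of the whole probe on the older mouse assembly of the array design (mm7). The probe of Gnmt spans an intron, as its genomic extent is longer than the probe. Which part of each transcript the probes bind was not given in the sources used here.
Cth, chr3:157802869-157802928, minus strand: ccaaatcttcggaataactggacagatcat
Bhmt, chr13:90683020-90683079, minus strand: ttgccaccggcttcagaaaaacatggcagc
Gls2, chr10:127711271-127711330, plus strand: catgcatatgtatctgccgcagagtaagag
Gnmt, chr17:44855132-44855280, minus strand: aggcactggcagagatggctctcctggctt

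Beside each pathway count below stand 5.30% of all 16558 genes called lower, and 14.9% of the 921 genes of like signal. In the urea cycle 3 of 6 enzymes fell, and the 3 are the steps that follow citrulline. Ass1, which joins citrulline to aspartate, had scaled log2 signals of 8.23, 8.38, 8.37 and 8.29 on the STD diet and 7.97, 7.82, 7.24 and 7.42 on the ATH diet. Asl, which splits the product into arginine and fumarate, had 6.25, 6.43, 6.38 and 6.16 on the STD diet and 5.59, 5.49, 4.90 and 5.08 on the ATH diet. Arg1, the liver arginase that releases urea, had 6.65, 6.62, 6.94 and 6.71 on the STD diet and 5.91, 6.25, 5.75 and 5.94 on the ATH diet. In each of the 3 every ATH array lay below every STD array. The log2 fold change was -0.70 (SE 0.17, adjusted p = 0.0449) for Ass1, -1.04 (SE 0.18, adjusted p = 0.0178) for Asl and -0.77 (SE 0.14, adjusted p = 0.0229) for Arg1. Of the mitochondrial steps before citrulline none was called on its brightest probe. Nags, which makes the activator of the first step, had a log2 fold change of -0.36 (SE 0.12, adjusted p = 0.0908) and no overlap between the diets. The second probe of Nags had -0.49 (SE 0.13, adjusted p = 0.0511). Nags was called lower by limma with the mean of its probes (adjusted p = 0.04925) and with normexp background correction (adjusted p = 0.0423). Cps1, the entry of ammonia into the cycle, had a log2 fold change of -0.21 (SE 0.22, adjusted p = 0.563), with a 95% interval of -0.71 to 0.29. Otc, which makes citrulline, had one of -0.38 (SE 0.20, adjusted p = 0.248), with an interval of -0.83 to 0.08. For both Cps1 and Otc the diets overlapped: ATH replicates 1 and 2 lay within or above the STD range while replicates 3 and 4 lay below it. Less bright probes of Otc had log2 fold changes of -0.56 (SE 0.18, adjusted p = 0.0896) and -0.57 (SE 0.17, adjusted p = 0.0695). With 1 array left out the 3 calls became 0 without ATH replicate 4, STD replicate 1 or STD replicate 3, 1 (Asl) without ATH replicate 3 or STD replicate 4, and 2 (Asl and Arg1) without STD replicate 2. No difference between the later and the earlier steps was tested.

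In the methionine cycle and transsulfuration 5 of 7 enzymes fell, and the pathway holds the largest change of the 34 genes. Mat1a, the liver enzyme that makes S-adenosylmethionine, had scaled log2 signals of 7.07, 6.87, 6.66 and 7.05 on the STD diet and 6.17, 6.34, 5.91 and 5.76 on the ATH diet. Gnmt, which uses S-adenosylmethionine to methylate glycine and is one of the most abundant methyltransferases of liver, had 8.60, 8.56, 8.56 and 8.65 on the STD diet and 7.80, 7.57, 7.19 and 7.13 on the ATH diet. The 4 STD arrays of Gnmt lay close to each other (SD 0.04) and the ATH arrays were all lower. Ahcy, which clears S-adenosylhomocysteine, had 7.50, 7.29, 7.35 and 7.22 on the STD diet and 6.69, 6.78, 6.47 and 6.15 on the ATH diet. Bhmt, which turns homocysteine back into methionine with betaine, had 7.66, 7.43, 8.33 and 8.38 on the STD diet and 6.81, 6.46, 6.83 and 6.85 on the ATH diet. The STD arrays of Bhmt fell into a higher and a lower pair, and the lower pair still lay above every ATH array. Cth, which cleaves cystathionine to cysteine as the last step of transsulfuration, had 6.30, 6.54, 6.43 and 6.68 on the STD diet and 5.08, 5.46, 4.58 and 4.63 on the ATH diet.

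The log2 fold changes of these 5 genes were -1.55 (SE 0.21, adjusted p = 0.00896) for Cth, -1.21 (SE 0.23, adjusted p = 0.0234) for Bhmt, -1.17 (SE 0.17, adjusted p = 0.0105) for Gnmt, -0.87 (SE 0.17, adjusted p = 0.0232) for Mat1a and -0.82 (SE 0.16, adjusted p = 0.0252) for Ahcy. In linear terms the mean STD signal was 2.92 times the ATH signal for Cth, 2.32 times for Bhmt and 2.25 times for Gnmt. All 3 probes of Ahcy were called lower. With 1 array left out the 5 calls became 2 (Gnmt and Cth) without ATH replicate 3, ATH replicate 4, STD replicate 1 or STD replicate 4, and 3 without STD replicate 2 or 3. Cbs, the step before Cth, had a log2 fold change of -0.46 (SE 0.12, adjusted p = 0.0538), which missed the threshold although the diets did not overlap. Sds, which deaminates serine and threonine, had the smallest log2 fold change of the 34, -0.14 (SE 0.19, adjusted p = 0.663), with a 95% interval of -0.57 to 0.30 and overlapping diets.

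Glutaminase and the cytosolic aminotransferases fell, 3 of 3. Gls2, the liver glutaminase, had scaled log2 signals of 7.31, 7.27, 7.15 and 7.21 on the STD diet and 6.45, 6.30, 5.52 and 5.82 on the ATH diet. Got1, the cytosolic aspartate aminotransferase, had 5.14, 5.39, 5.55 and 5.37 on the STD diet and 4.50, 4.94, 4.48 and 4.19 on the ATH diet. Gpt, the cytosolic alanine aminotransferase, had 6.68, 6.61, 6.65 and 6.68 on the STD diet and 6.27, 6.23, 5.57 and 5.92 on the ATH diet. The diets did not overlap for any of the 3, and the 4 STD arrays of Gpt lay close to each other (SD 0.03). The log2 fold changes were -1.21 (SE 0.20, adjusted p = 0.0179) for Gls2, -0.84 (SE 0.18, adjusted p = 0.0307) for Got1 and -0.66 (SE 0.17, adjusted p = 0.0464) for Gpt. The 3 calls became 0 without ATH replicate 4, STD replicate 1, STD replicate 3 or STD replicate 4, 1 (Gls2) without ATH replicate 3 or STD replicate 2, and 2 without ATH replicate 1.

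Of the tyrosine enzymes 2 of 4 fell. Tat, tyrosine aminotransferase, the first step and a classic glucocorticoid-induced gene of liver, had scaled log2 signals of 7.04, 7.04, 7.47 and 7.30 on the STD diet and 6.04, 6.21, 6.02 and 6.36 on the ATH diet, a log2 fold change of -1.05 (SE 0.15, adjusted p = 0.0104). Hpd, the next step, had 7.26, 7.02, 7.03 and 7.05 on the STD diet and 6.85, 6.53, 6.27 and 6.26 on the ATH diet, a log2 fold change of -0.61 (SE 0.16, adjusted p = 0.0494). Every ATH array lay below every STD array for both. The later steps Hgd and Fah had log2 fold changes of -0.40 (SE 0.15, adjusted p = 0.123) and -0.40 (SE 0.12, adjusted p = 0.0696), not called, with no overlap between the diets. Tat was called with any 1 array left out, while Hpd was called only without ATH replicate 1.

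Of the tryptophan enzymes with a probe 2 of 4 fell. Tdo2, the liver dioxygenase that opens the indole ring, had scaled log2 signals of 5.58, 5.52, 5.55 and 5.39 on the STD diet and 5.18, 5.07, 4.47 and 4.54 on the ATH diet, a log2 fold change of -0.70 (SE 0.18, adjusted p = 0.0497). The second probe of Tdo2 had a log2 fold change of -0.67 and an adjusted p of 0.0718, so the call rests on the brighter probe. Kmo, which hydroxylates kynurenine, had 3.15, 3.15, 3.20 and 3.22 on the STD diet and 2.61, 2.78, 2.69 and 2.63 on the ATH diet, a log2 fold change of -0.50 (SE 0.11, adjusted p = 0.0310) with the narrowest spread of the called genes on the STD diet apart from Gpt. Of Tdo2 and Kmo, neither was called without ATH replicate 3, ATH replicate 4 or any 1 of the STD arrays. Kynu, which cleaves kynurenines, had a log2 fold change of -0.45 (SE 0.15, adjusted p = 0.100) and was not called. Acmsd, which diverts the pathway from NAD synthesis, is the only gene of the list with a low probe signal, above that of 19.79% of all genes. Its values were -4.07, -3.94, -2.66 and -2.76 on the STD diet and -4.43, -4.32, -3.88 and -4.12 on the ATH diet, a log2 fold change of -0.83 (SE 0.34, adjusted p = 0.148), and the diets overlapped because the STD arrays themselves fell into a high and a low pair.

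The remaining groups are small. Aass, the first enzyme of lysine breakdown, had scaled log2 signals of 6.23, 6.30, 6.22 and 6.05 on the STD diet and 5.83, 5.81, 5.44 and 5.27 on the ATH diet and fell by 0.61 on the log2 scale (SE 0.16, limma adjusted p = 0.0489). Prodh, which oxidizes proline, had a log2 fold change of -0.42 (SE 0.18, adjusted p = 0.156). Bckdha, the E1 alpha subunit of the branched-chain ketoacid dehydrogenase, had 6.21, 6.00, 6.05 and 5.95 on the STD diet and 5.72, 5.55, 5.32 and 5.34 on the ATH diet and fell by 0.57 (SE 0.13, limma adjusted p = 0.0400), and both its probes were called. Its partner subunit Bckdhb had a log2 fold change of -0.28 (SE 0.17, adjusted p = 0.304) and overlapping diets. Neither Aass nor Bckdha was called without ATH replicate 3, ATH replicate 4 or any 1 of the STD arrays, and Aass was also not called without ATH replicate 1.

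None of the 3 histidine enzymes was called, although all 3 were lower at an unadjusted limma p under 0.05, as were 19.5% of all genes. Hal, histidine ammonia-lyase, had the largest difference of them, with 6.24, 6.36, 5.94 and 5.97 on the STD diet and 5.65, 5.93, 4.71 and 5.29 on the ATH diet and a log2 fold change of -0.73 (SE 0.25, adjusted p = 0.101). The ATH arrays of Hal ranged over more than 1 unit, and Hal, Uroc1, Agxt and Kynu were called lower without ATH replicate 2. Uroc1 and Ftcd, the steps that follow, had log2 fold changes of -0.47 (SE 0.17, adjusted p = 0.106) and -0.58 (SE 0.19, adjusted p = 0.0890). Agxt, which detoxifies glyoxylate in peroxisomes, had 7.78, 7.92, 7.72 and 7.77 on the STD diet and 7.43, 7.46, 6.74 and 6.82 on the ATH diet, a log2 fold change of -0.68 (SE 0.19, adjusted p = 0.0596), with ATH replicates 3 and 4 below replicates 1 and 2, which in turn lay below the STD arrays. Gldc, of the glycine cleavage system, had a log2 fold change of -0.44 (SE 0.22, adjusted p = 0.233). Dpys, of pyrimidine breakdown, had 5.20, 5.08, 4.78 and 4.76 on the STD diet and 4.69, 4.82, 4.26 and 4.13 on the ATH diet, a log2 fold change of -0.48 (SE 0.19, adjusted p = 0.143), and its diets overlapped.

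**Figure D2:**
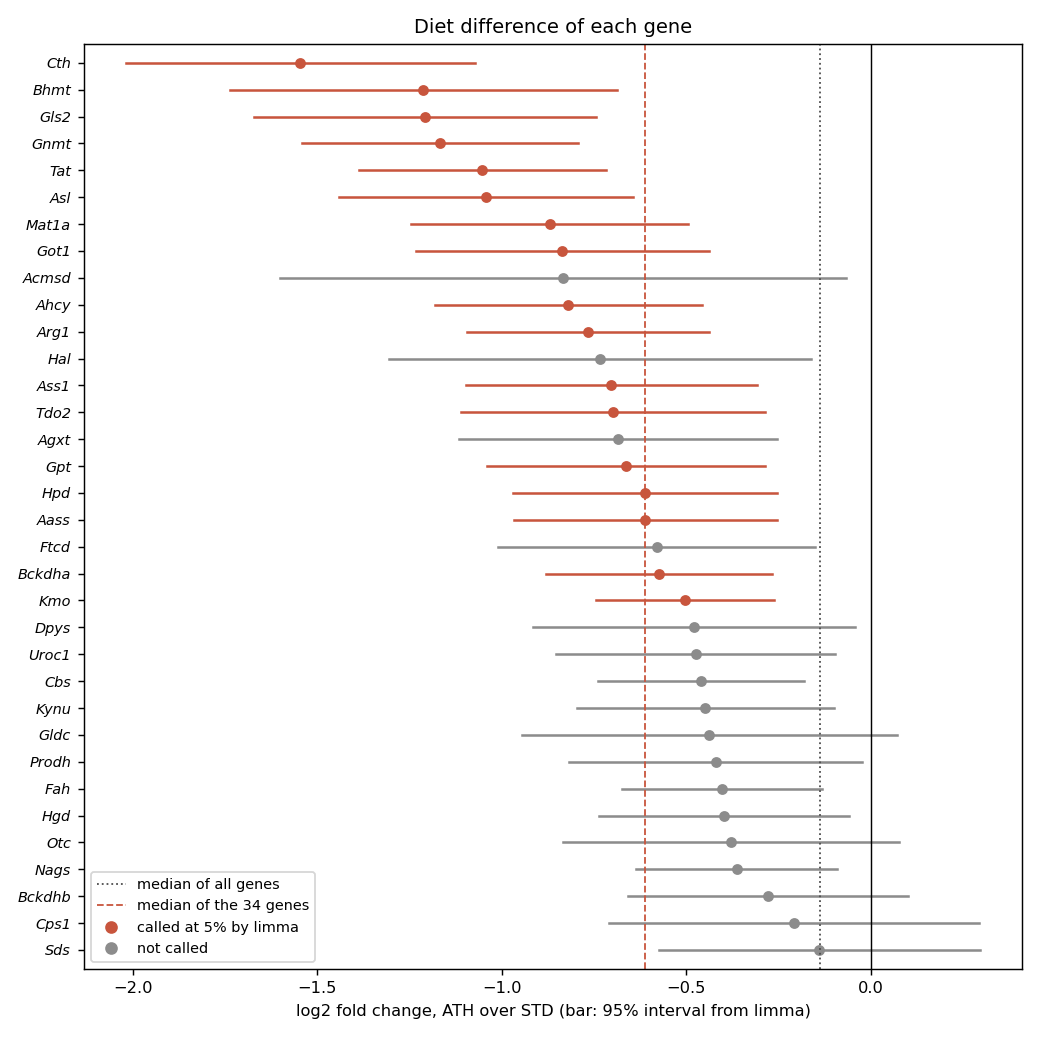
Log2 fold change of each of the 34 genes, ATH over STD, ordered by size, with 95% intervals from limma (4 arrays per diet). The 17 genes called at 5% are in red, the dotted line is the median of all genes (-0.14) and the dashed line that of the 34 genes (-0.61).

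The same pathways hold further enzymes that were listed apart from the 34. Of 65 measured, 17 were called lower, 2 were called higher and 46 were not called. Their median log2 fold change was -0.51, and 59 were negative. Over all 16558 genes 5.30% were called lower, 4.05% higher and 65.1% were negative, with a median of -0.14. The 17 became 2 without STD replicate 3 or 4, 3 without ATH replicate 3, ATH replicate 4 or STD replicate 1, 9 without STD replicate 2 and 12 without ATH replicate 1, and 25 without ATH replicate 2. Asns, asparagine synthetase, had the largest decrease, with a log2 fold change of -2.67, SE 0.40, adjusted p = 0.0132. Csad, of taurine synthesis, followed with -1.99, SE 0.36, adjusted p = 0.0203, and Oat, ornithine aminotransferase, had -1.19, SE 0.13, adjusted p = 0.00427 and was the only one of the 65 called at 1%. Others that fell were Dmgdh (-1.02, SE 0.17, adjusted p = 0.0177), which acts on the product of Bhmt, Afmid (-1.01, SE 0.25, adjusted p = 0.0463) of the tryptophan pathway, Upb1 (-0.89, SE 0.19, adjusted p = 0.0316) of pyrimidine breakdown, Qdpr (-0.86, SE 0.16, adjusted p = 0.0229), which recycles the cofactor of phenylalanine hydroxylase, and Shmt1 (-0.79, SE 0.14, adjusted p = 0.0193), which interconverts serine and glycine.

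Arg2, the mitochondrial arginase, was among the 2 called higher, but its probe was detected on 2 of 4 STD arrays and 4 of 4 ATH arrays, so that it entered the test through the ATH arrays alone, and no fold is given for it. Some of the 34 genes have a second enzyme for the same reaction. Such pairs were formed after the values were seen, so they are described with no test, and only changes of a ratio within an array are compared. The log2 ratio of Mat2a to Mat1a, the methionine adenosyltransferase of other tissues against that of liver, was 1.09 higher on the ATH diet, and that of Ido1 to Tdo2 was 1.28 higher, with no overlap between the diets (n = 4 each), while Mat2a and Ido1 were not called on their own. For the mitochondrial aminotransferases the diets overlapped, with changes of 0.42 for Got2 to Got1 and -0.01 for Gpt2 to Gpt. With normexp background correction the change for Ido1 to Tdo2 was 0.71. The probe of Ido1 had a low signal, with scaled log2 means of -4.36 on the STD diet and -3.78 on the ATH diet. On its own Ido1 overlapped between the diets. The Ido1 to Tdo2 ratio of ATH replicate 2 (-9.57) lay only just above that of STD replicate 4 (-9.61).

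**Figure D3:**
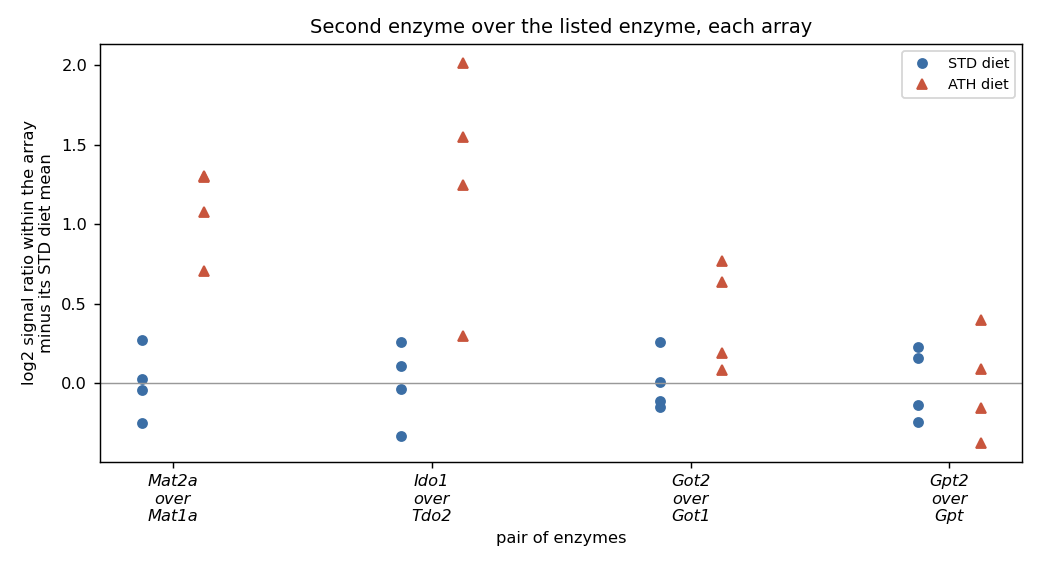
Log2 signal ratio of a second enzyme over the listed enzyme within each array, minus its mean over the 4 STD arrays, for 4 pairs. Circles are STD arrays and triangles are ATH arrays, which lie above all circles for the first 2 pairs and overlap them for the aminotransferases.

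Among 18 amino acid transporters 3 fell and 2 rose, where 5.30% of all genes were called lower and 4.05% higher. Those that fell were Slc38a3 (-0.82, SE 0.14, adjusted p = 0.0190), a glutamine carrier of hepatocytes, Slc6a12 (-0.80, SE 0.17, adjusted p = 0.0294), which carries betaine, and Slc1a2 (-0.51, SE 0.11, adjusted p = 0.0338), a glutamate carrier. Those that rose were Slc7a7 (1.31, SE 0.28, adjusted p = 0.0310) and Slc7a8 (1.24, SE 0.24, adjusted p = 0.0260), light chains of amino acid exchangers. Of 16 regulators of these pathways, among them the glucagon receptor Gcgr and the factors Hnf4a and Cebpa, 0 were called by limma. Of the 16, 6 were lower at an unadjusted limma p under 0.05, as were 19.5% of all genes.

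Markers of other cells moved in the same livers. Over all genes 5.30% were called lower and 4.05% higher, and 65.1% had negative log2 fold changes. Of 16 macrophage markers 8 rose and all 16 had positive log2 fold changes (median 1.62); Cd5l (1.69, SE 0.23, adjusted p = 0.00904) and Mpeg1 (1.89, SE 0.33, adjusted p = 0.0191) were among the 8. Their summed level on the log2 scale was 6.85 to 7.13 on the STD arrays and 7.78 to 9.81 on the ATH arrays. Of 16 hepatocyte markers 1 fell (Serpina1b, -0.63, SE 0.14, adjusted p = 0.0341), with a median of -0.34 and a summed level of 12.94 to 13.08 on the STD arrays and 12.46 to 12.88 on the ATH arrays, so hepatocyte genes were strongly present on every array of the labelled tissue. In bulk RNA fewer cells of a type and less RNA per cell cannot be told apart. The array median of the 34 genes, as a difference from the STD mean, was -0.36, -0.43, -0.84 and -0.78 on ATH replicates 1 to 4, that of the hepatocyte markers -0.19, -0.15, -0.49 and -0.53, and that of the macrophage markers 1.29, 0.52, 2.19 and 2.30. Replicates 3 and 4 were thus lowest in the 34 genes and in the hepatocyte markers and highest in the macrophage markers. The part of cell composition in the lower values of the 34 genes was not tested.

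**Figure D4:**
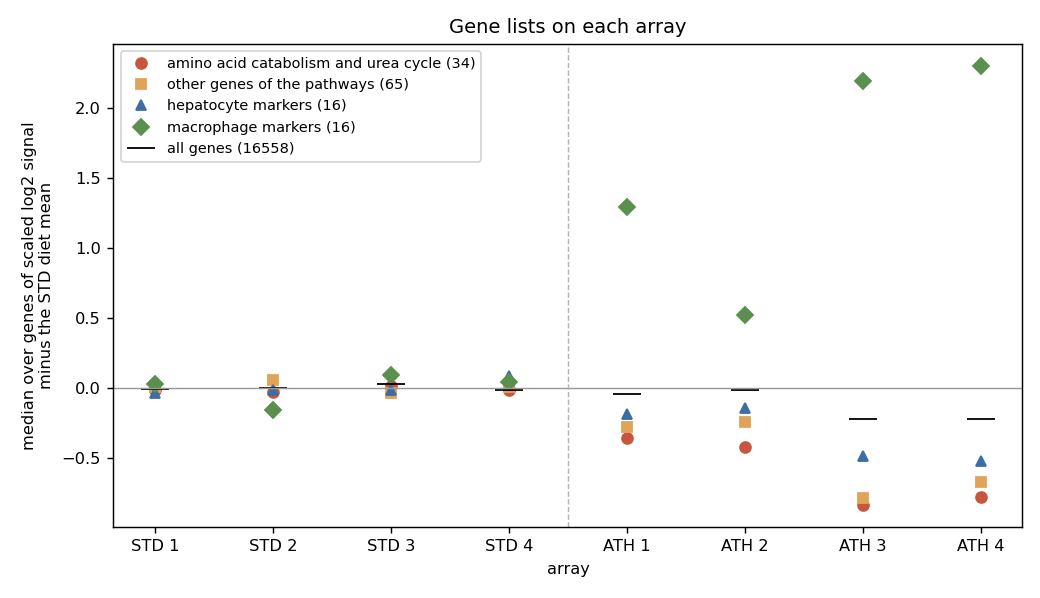
Median over the genes of each list of the scaled log2 signal minus the STD mean, for each of the 8 arrays. The 34 genes reach -0.84 and -0.78 on ATH replicates 3 and 4, where the macrophage markers reach 2.19 and 2.30.

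Hepatocytes differ along the lobule, and many of the 34 genes are periportal. For the counts that follow, 5.30% of all genes were called lower, 4.05% higher and 65.1% were negative, with a median of -0.14. Of 9 other periportal genes 1 fell (Cyp2f2, -0.58, SE 0.13, adjusted p = 0.0344) and their median log2 fold change was -0.06. Of 11 pericentral genes 4 fell and all 11 were negative, with a median of -0.51; Rhbg (-1.38, SE 0.23, adjusted p = 0.0179), an ammonium carrier, and Cyp1a2 (-0.70, SE 0.15, adjusted p = 0.0305) were among the 4 beside Oat and Slc1a2. Of 10 stellate cell markers 1 rose (Col3a1, 1.74, SE 0.37, adjusted p = 0.0327), of 7 cholangiocyte markers 1 rose (Sox9, 1.04, SE 0.24, adjusted p = 0.0391), of 6 endothelial markers 1 rose (Lyve1, 1.21, SE 0.27, adjusted p = 0.0361), and of 10 T and B cell markers 0 were called by limma, with 1 lower and 4 higher at an unadjusted p under 0.05.

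The size of the decrease depends on the scaling, because the 75th percentile itself was 0.45 higher on the ATH arrays and the median of 8 spike-in probes only 0.16 higher. Without scaling the median of all genes rose to 0.31 and that of the 34 genes was -0.16, with 25 of 34 negative and 6 called. With spike-in scaling the 2 medians were 0.15 and -0.33, with 31 of 34 negative and 8 called. With quantile normalization they were -0.03 and -0.33, with 32 of 34 negative and 7 called. Counted over called probes rather than genes, the share that was higher was 38.2% in the main setting, 94.9% without scaling, 82.0% with spike-in scaling, 55.0% with median scaling, 54.2% with quantile normalization and 18.9% with normexp. Asl, Tat, Mat1a, Gnmt, Cth and Gls2 were called lower with the 75th percentile, the median, quantile normalization, the spike-in probes and no scaling alike.

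**Figure D5:**
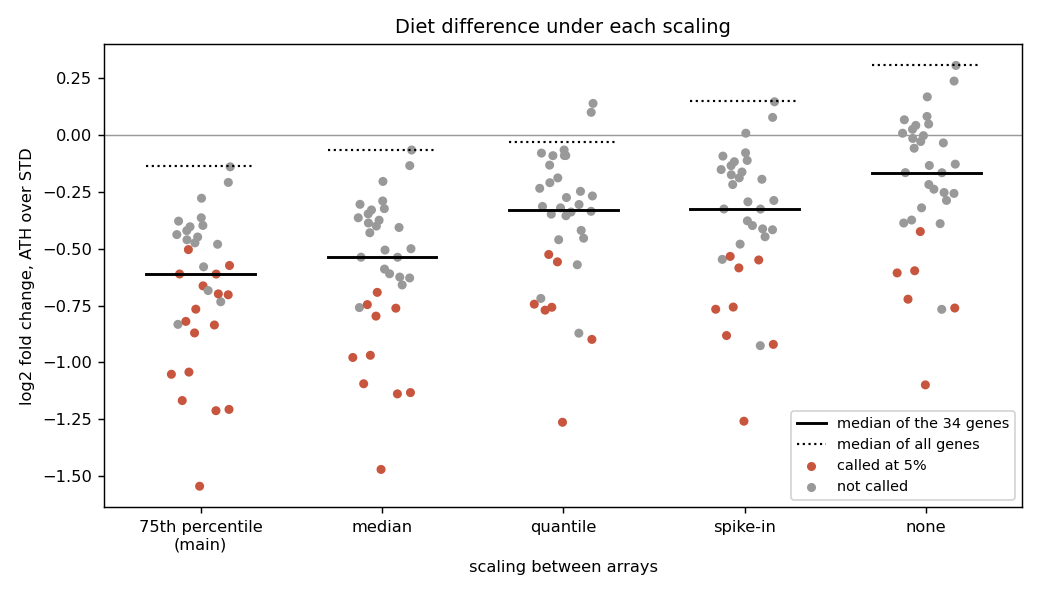
Log2 fold change of the 34 genes (points) under 5 ways of scaling the arrays, with called genes in red. The solid line is the median of the 34 genes and the dotted line that of all genes, which moves from -0.14 to 0.31 without scaling.

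Promoters of genes that fell are given as a description. The 250 bases before the start of 3 called genes are shown, from RefSeq on GRCm38.p6, 5′ to 3′ on the strand of the gene. Of the 34 genes 24 had an entry in the table. The capitals mark CCAAT, the CCAAT box, and AGGTCA, the half-site of nuclear receptors, on either strand. Both sets of letters were chosen after these 3 promoters had been read, when the 4 motifs searched first had no match in them, so their counts favour a match and carry no weight as a difference.
Bhmt, chr13:93637759-93638008, minus strand: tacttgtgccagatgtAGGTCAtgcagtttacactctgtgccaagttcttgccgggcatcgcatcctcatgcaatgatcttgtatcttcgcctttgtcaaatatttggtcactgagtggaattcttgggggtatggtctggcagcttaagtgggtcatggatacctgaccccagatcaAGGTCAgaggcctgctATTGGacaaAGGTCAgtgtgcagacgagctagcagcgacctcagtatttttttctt
Gnmt, chr17:46729166-46729415, minus strand: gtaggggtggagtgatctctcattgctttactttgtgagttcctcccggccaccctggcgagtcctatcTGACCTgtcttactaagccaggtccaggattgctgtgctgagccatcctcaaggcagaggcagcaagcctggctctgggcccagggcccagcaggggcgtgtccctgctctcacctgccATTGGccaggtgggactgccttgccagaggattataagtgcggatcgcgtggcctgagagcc
Tat, chr8:109990186-109990435, plus strand: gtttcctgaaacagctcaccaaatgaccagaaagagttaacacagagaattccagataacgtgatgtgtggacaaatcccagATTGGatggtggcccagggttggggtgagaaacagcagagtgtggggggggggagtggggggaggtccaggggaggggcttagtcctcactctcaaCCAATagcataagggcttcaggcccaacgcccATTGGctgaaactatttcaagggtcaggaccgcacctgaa

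Bhmt held AGGTCA at 3 places and CCAAT at 1, Gnmt held each once, and Tat held CCAAT at 3 places and no AGGTCA. Of the 24 genes, 13 (54.17%) held CCAAT, against 33.85% of all 32851 promoters of the table, and 11 (45.83%) held AGGTCA, against 14.02%. For every motif a gene counted when any of its promoters in the table matched, while all promoters were counted singly. The shares are therefore unlike counts, and the rule can raise that of the genes. Of the 4 motifs searched first, TGACGTCA, the cyclic AMP response element, was in 0 of 24 (1.546% of all promoters), CAAAGTCCA, of HNF4, in 0 (0.3835%), TTNNGCAA, of C/EBP, in 3 (12.5%, against 9.564%) and TATAAA, the TATA box, in 4 (16.67%, against 12.37%). Both strands were searched for each motif, overlaps between motifs were not removed, and a match shows the letters alone.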

How the data were processed

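Liver RNA of 4 STD and 4 ATH mice was hybridized to 1 Agilent 4x44 array each, and samples were grouped by their titles. The authors scanned the arrays with Agilent Feature Extraction 9.5 at 1-colour defaults, and the deposited files hold the spot intensity after background subtraction and detrending. A second deposited table gives log2 values for 31595 non-control probes, and its scaling and baseline are not stated. The comparison with the logged signal covered those of its probes that passed the detection filter below. For 100% of these the values differ by an array constant and a probe constant, to within 0.001.

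Spots marked as outliers were left out, spots of a probe were averaged on the log2 scale, and the 75th percentile of the array over 41174 non-control probes was subtracted. A probe was kept when detected on at least 3 of 4 arrays of either diet (31056 probes). Each array had 72.3 to 77.8% of spots well above background, and the number of arrays limits the precision. Replicates correlated at 0.986 to 0.991 on the STD diet and 0.971 to 0.990 on the ATH diet. Diet was tested with limma 3.58.1 in R 4.3.3 (two-sided moderated test, with Benjamini-Hochberg adjustment over all detected probes and a call at 5%). The Methods' test (ANOVA with unequal variance, used at 1% in the study) is an alternative, and its calls are counted here at 5%. The 1% threshold was applied to limma alone. The limma p-values set the difference between diets against the spread between mice of the same diet, moderated across probes. With 1 array per mouse that spread includes array noise, and the p-values do not cover an effect of the slide. Each gene is read by its brightest probe. Names came from RefSeq accessions for 22951 probes, from symbols for 6659 and from synonyms for 3109, and 8455 kept the file's name. The steps were tested on simulated data.

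The 35 genes, the other lists and the rule for the genes named (all 35; every array of those called and of the largest of each pathway; at most the 10 largest calls of each other list) were chosen with earlier results of these data known. The CCAAT and AGGTCA letters and the pairs of enzymes were chosen after the values or sequences here were seen. Only the first 30 bases of each probe are printed, and 1 called gene of the other lists is not reported here. Alternatives covered background correction, scaling, the detection filter, the deposited values, the test and threshold, array weights, the probe per gene, the replicate number as a block, and each array left out.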

Additional observations from a re-analysis of the deposited data

Results flagged for a closer look

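Among 68 groups of 4 arrays (34 genes on each diet), 2 held an array far from the others, by a gap that was a large part of the whole range (Dixon's ratio at the 95% level), where chance gives about 1 in 20. For Hpd, STD replicate 1 had a scaled log2 signal of 7.26 against 7.02 to 7.05 on the other STD arrays (ratio 0.872). For Bhmt, ATH replicate 2 had 6.46 against 6.81 to 6.85 on the other ATH arrays (ratio 0.889).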

How the results depend on the processing

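No member was called higher by limma under any alternative run. The 17 members called lower became 20 with array weights, 14 with the deposited values, 19 with detection required on all 8 arrays, 18 with the mean of a gene's probes, 25 with normexp, 10 with median scaling, 9 with no detection filter, 8 with spike-in scaling, 7 with quantile normalization, 6 without scaling, 1 at a threshold of 1% and 0 by the Methods' test, by which 24 had an unadjusted p under 0.05. Over all detected probes that test called 22 of 31056, against 2483 by limma. Its 0 calls among the members therefore cannot tell them from the other genes. The study's own list at 1% is not counted here, and its enriched clusters included pyridoxal phosphate and arginine dependent process. With 1 array left out the members called lower by limma ranged from 3 to 20. They were 14 and 20 without ATH replicates 1 and 2, and 5 and 3 without ATH replicates 3 and 4. Without STD replicates 1 to 4 they were 3, 7, 4 and 4. Tat, Gnmt and Cth were called under every alternative except the Methods' test and, for Tat and Gnmt, the 1% threshold. The median of the members, -0.61, was -0.16 without scaling, -0.33 with quantile normalization and -0.33 with spike-in scaling, and ranged from -0.71 to -0.53 with 1 array left out. The other pathway genes called lower, 17, were 28 with normexp, 10 with median scaling, 10 with quantile normalization, 8 with no detection filter, 6 with spike-in scaling, 5 without scaling, 1 at 1% and 1 by the Methods' test, and 2 to 25 with 1 array left out. Those called higher, 2, were 4 without scaling, 1 with detection on all 8 arrays, 1 with normexp, 0 with no detection filter, 0 at 1% and 0 by the Methods' test, and 0 to 2 with 1 array left out. Arrays with the same replicate number share only a slide position. Once each diet mean was taken off, pairs of them correlated at 0.0996, 0.229, 0.181 and 0.175. As 1 of 4 was below 0.1, the numbers were not taken to pair the arrays. Each STD array still correlated best with the ATH array of its own number, as a hint from the data. With the replicate number as a block, 8 members, 11 other pathway genes lower and 1 higher, and 1269 of 31056 probes were called, against 2483 probes. Directions reversed without scaling for Nags (0.083), Cps1 (0.24), Otc (0.068), Hgd (0.049), Fah (0.043), Sds (0.31), Prodh (0.026), Bckdhb (0.17) and Gldc (0.0088), with quantile normalization for Cps1 (0.10) and Sds (0.14), and with spike-in scaling for Cps1 (0.078), Sds (0.15) and Bckdhb (0.0089); none of these was called in the main setting. The cause of the changed counts was not tested.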
